A study of Ovis aries with 15 samples.

Results

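The comparison described here was between longissimus dorsi (LD) muscle, the long muscle of the back, of sheep fetuses at 100 d of development and at 80 d. It used 6 of the 15 arrays of a developmental series that also covered fetuses at 120 d, newborn lambs at 150 d and young lambs at 230 d. The 100 d group was 3 fetuses and the 80 d group was 3 other fetuses of Dorset/Suffolk/Rambouillet cross-bred stock, with 1 array for each animal and no treatment. The fetuses of 100 d were males and a female and those of 80 d all males by the study's methods, and the labels do not give the sex of single animals. Total RNA of the whole muscle was labelled and hybridised to a bovine Affymetrix genome array, so ovine transcripts that differ in sequence from the bovine probes can read low. Values are signals, that is, the intensity that the MAS5 algorithm assigns to a probe set (the group of short probes for 1 transcript) after each array is scaled to the same mean of 200. A probe set was kept where its signal was 50 or more on at least 3 of the 6 arrays, which left 13724 of 24016 (57.1%) once controls were removed. These named 6874 of the 9155 genes on the array, and each gene was read from its brightest probe set.

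In sheep most myofibres are laid down before birth. Primary myotubes form first, secondary and later tertiary myotubes are built along them, and by mid gestation the fibres are enlarging, filling with sarcomeres and acquiring their capillaries, nerves and connective tissue sheaths. Fibres first make embryonic and neonatal myosin heavy chains, and the adult fast and slow forms replace these later. In bulk tissue, fewer cells of a type and less RNA in each of those cells cannot be told apart.

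The 6 arrays were similar in their share of signals of 50 or more and in median signal, but their hybridisation controls differed by stage. Signals of 50 or more made up 54.9% to 57.6% of probe sets at 100 d and 54.5% to 56.2% at 80 d, and the median signal was 63.1 to 69.4 at 100 d and 61.1 to 66.35 at 80 d. Pairs of arrays from the same stage differed by a median of 0.23 to 0.35 on the log2 scale at 100 d and 0.23 to 0.29 at 80 d, with replicate 1 of 100 d in both of the wider pairs. The ratio of the actin 3′ to 5′ control probe sets, a sign of RNA integrity, was 1.27 to 1.73 at 100 d and 1.66 to 2.21 at 80 d. The spiked hybridisation controls averaged 9.98 ± 0.10 at 100 d and 10.16 ± 0.08 at 80 d on the log2 scale (± SD, n = 3 per stage). Their ranges did not overlap, at 9.91 to 10.10 at 100 d and 10.11 to 10.25 at 80 d. Scaling the arrays to those controls instead of the common mean moved the median log2 difference of all probe sets to 0.19, against 0.00 as deposited. *XIST*, the RNA that coats the inactive X chromosome of females, had signals of 1350.4, 13.2 and 24.7 at 100 d, against 875, 854 and 38.2 at 80 d. Replicate 1 of 100 d was therefore high, and so were replicates 1 and 2 of 80 d, which goes against the account of the 80 d fetuses as males. The part of sex in the results was not tested.

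Few probe sets passed the test between the stages, although many had separate signals. A linear model fitted to all 15 arrays with limma, with p-values adjusted over the 13724 probe sets, called 25 of them at an adjusted p under 0.01 (0.182%). Of these, 21 rose and 4 fell at 100 d. *FBP2*, *TMOD4*, *ART3*, *NNAT* and *CCL21* are among these and are counted but not described further. At 0.05 the count was 47 (0.342%), with 40 up and 7 down, and 1177 (8.58%) had an unadjusted p under 0.05. By gene, 15 of 6874 passed at 0.01 (0.218%) and 26 at 0.05 (0.378%). Leaving out any 1 of the 6 arrays lowered the count at 0.01 to between 8 and 13, and the fit of the 6 arrays alone called 2. In contrast, the 3 signals of 100 d all lay above the 3 of 80 d for 729 genes (10.6%) and all below for 754 (11%). Such genes are called non-overlapping below, and these shares are the background for each gene group. Differences given below are 100 d minus 80 d in mean log2 signal. The standard error of the fit follows the ± sign, with the adjusted p of the same test. Both draw on the scatter within every stage of the 15 arrays, including those after birth. Not passing is therefore no measure of the scatter among the fetuses of 100 d and 80 d alone. At 150 d, for example, signals were 55.1, 135.3 and 18.3 for *CKB* and 210.8, 799.5 and 152.4 for *MLLT11*.

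Among bright genes, defined by a mean signal of 400 or more at the higher stage, non-overlapping genes were more often lower than higher at 100 d, but that split depended on the scaling. Of 2462 bright genes, 280 (11.4%) lay higher and 412 (16.7%) lower. With the arrays scaled to the hybridisation controls the split was 678 higher and 133 lower, with array medians set equal it was 229 and 447, and over all kept probe sets it was 1435 (10.5%) and 1363 (9.93%) as deposited but 2664 and 462 with the hybridisation controls. The median size of the difference was 0.48 for the higher and 0.36 for the lower bright genes on the log2 scale. A difference of at least 2-fold was reached by 27 of the higher genes (1.1% of bright genes) and 20 of the lower genes (0.812%). Most differences were small, as is seen in the plot of level against difference.

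**Figure D1:**
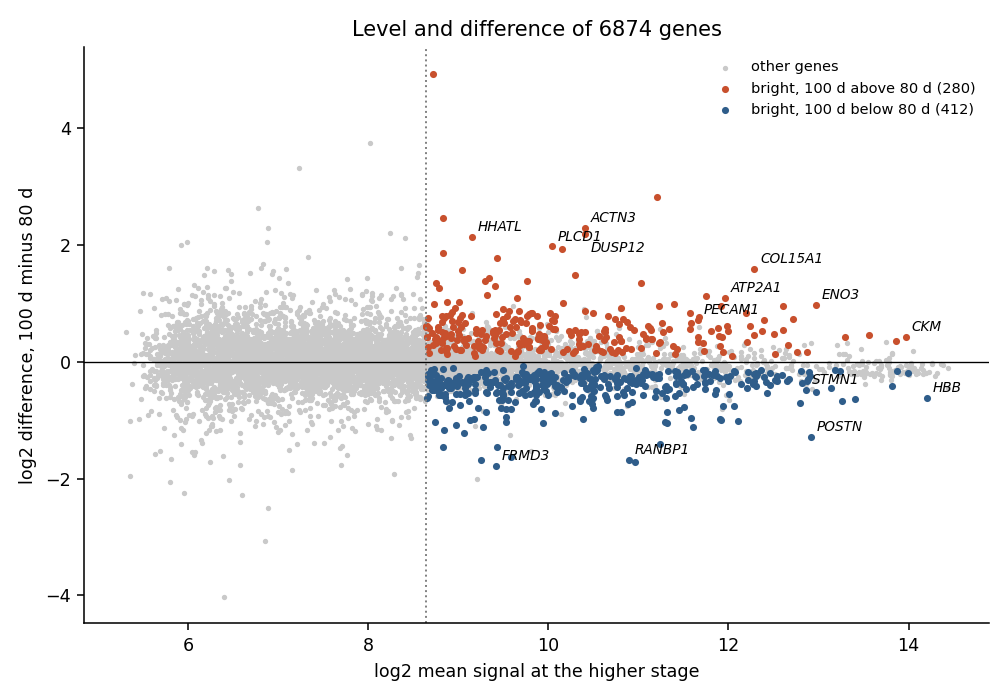
Each point is 1 of 6874 genes, with the log2 of its mean signal at the higher of the 2 stages on the horizontal axis and the log2 difference, 100 d minus 80 d, on the vertical axis. Coloured points are bright genes (right of the dotted line) whose 3 arrays at 100 d all lay above (280, circles in red) or below (412, in blue) those at 80 d, and most of them lie within 1 log2 unit of 0.

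Among the genes that rose were *ACTN3*, *RPL3L* and *HHATL*, which are made in striated muscle. *ACTN3*, the alpha-actinin of the Z-disc of fast fibres, had signals of 769, 1710.1 and 1593 at 100 d, against 211, 247 and 339.8 at 80 d. The 2 stages did not overlap, though replicate 1 of 100 d lay well below the other two. The log2 difference was 2.30 ± 0.36, adjusted p = 0.0105. Without replicate 1 of 100 d it was 2.66, the highest with 1 array left out. The call at 0.05 was lost when any of 4 other arrays was left out, at adjusted p-values up to 0.079, and held without replicate 3 of 80 d. *RPL3L*, a paralogue of ribosomal protein L3 made in striated muscle, gave 288, 348 and 386 at 100 d, against 69.1, 76.7 and 88.3 at 80 d. Its signals at 100 d lay far above those at 80 d, with a difference of 2.12 ± 0.21, adjusted p = 2.9e-04. *HHATL*, an acyltransferase-like protein of muscle and heart, gave 600.4, 597 and 504 at 100 d, against 140.2, 117 and 129.7 at 80 d, and again the arrays of each stage lay close together (log2 difference 2.14 ± 0.23, adjusted p = 8.8e-04). With any 1 array left out, *RPL3L* and *HHATL* stayed under an adjusted p of 0.01, the highest being 0.0037 for *RPL3L* and 0.0092 for *HHATL*.

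*DUSP12*, annotated as a dual specificity phosphatase, was brighter. Its brightest probe set had signals of 1358, 1211 and 1495 at 100 d, against 319.7, 242 and 340.1 at 80 d and a difference of 2.18 ± 0.27, adjusted p = 0.0026, the highest adjusted p with 1 array left out being 0.025. A dimmer probe set of the same symbol did not follow it, with means of 203 at 100 d and 218 at 80 d, so the identity of the transcript that rose is uncertain. *ATP2A1*, the calcium pump of the sarcoplasmic reticulum of fast fibres, had signals of 3727, 4287 and 3976 at 100 d, against 1842, 1868 and 1885 at 80 d. All 3 fetuses of 100 d stood at about the same level, above the 80 d fetuses, which were closer still to each other, with a difference of 1.10 ± 0.19, adjusted p = 0.028. A second probe set of *ATP2A1* lay higher too, at 2853 at 100 d and 1755 at 80 d, but did not pass (log2 difference 0.69 ± 0.16, adjusted p = 0.12). *ATP1B1*, the beta subunit of the sodium-potassium pump, gave 745, 831 and 833 at 100 d, against 369.5, 330.2 and 434 at 80 d (log2 difference 1.10 ± 0.20, adjusted p = 0.036). Its stages did not overlap, and the call at 0.05 was lost with the hybridisation controls and with any 1 array left out, as was that of *ATP2A1* with any 1 array left out.

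**Figure D2:**
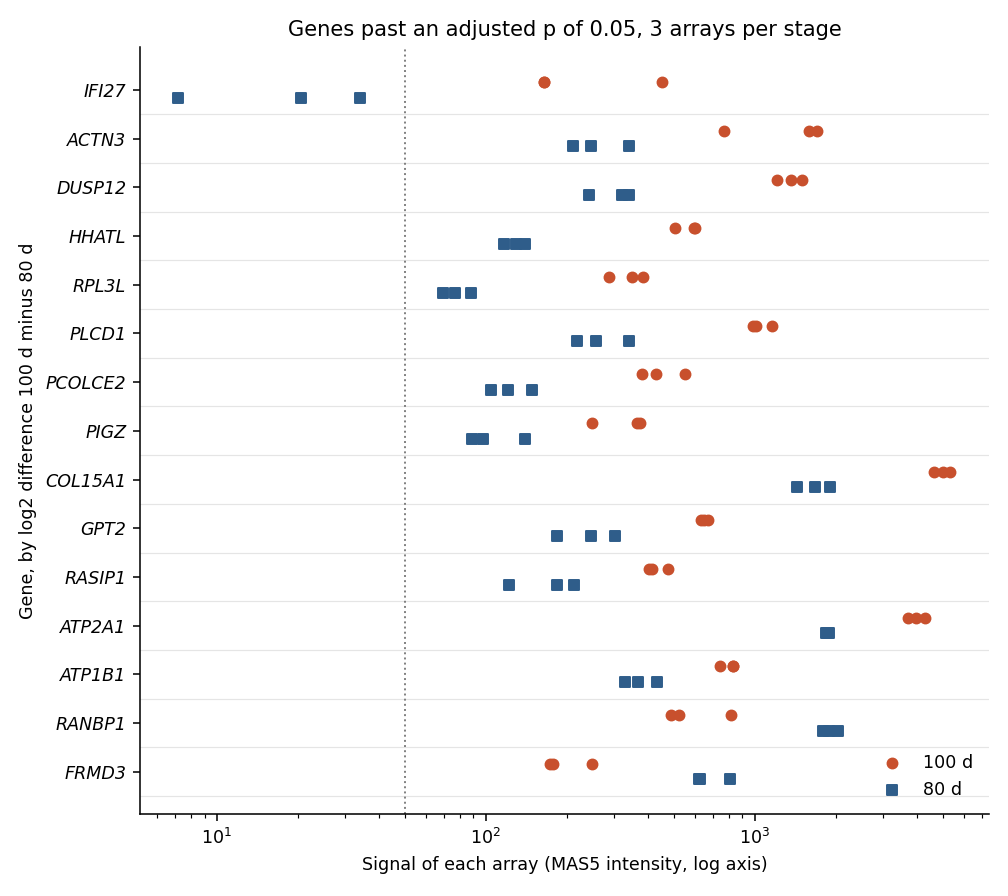
Signals of single arrays (MAS5 intensity, log axis) for the 15 genes of the naming rules that passed an adjusted p of 0.05 and had separate stages. The 3 fetuses of 100 d are circles above the 3 of 80 d as squares, and genes are ordered by log2 difference. Separate stages were a condition for being drawn, and *IFI27* at 80 d lies below the minimum signal of 50 marked by the dotted line.

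The other genes of the sarcomere were divided. Of the Z-disc and anchoring genes, all 19 on the array were measured. 8 of these lay higher and 3 lower at 100 d without overlap, 1 passed at 0.05, and the median log2 difference was 0.29, against 0.00 over all genes. The examples that follow were chosen after their values were seen. *MYOZ1*, the calsarcin of fast fibres, gave 5914, 8099.7 and 6251 at 100 d, against 3743, 4230.3 and 4194 at 80 d (log2 difference 0.72 ± 0.24, adjusted p = 0.34). *MYOZ2*, its counterpart of slow and cardiac muscle, ran the other way, at 8841, 6072 and 4427 at 100 d, against 10129, 9462 and 9966 at 80 d (log2 difference -0.67 ± 0.26, adjusted p = 0.45). *TCAP*, the titin cap, gave 4975, 2646 and 2692 at 100 d, against 1743, 1124 and 1725 at 80 d and was highest in replicate 1 of 100 d (log2 difference 1.13 ± 0.29, adjusted p = 0.17). None of these 3 passed.

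Of the thin filament and troponin genes, 16 were measured and 5 lay higher and 2 lower without overlap (median 0.26). The most abundant of them had levels that overlapped. *ACTA1*, skeletal actin, averaged 20676 ± 4744 at 100 d and 22201 ± 4299.6 at 80 d, *TNNC2*, fast troponin C, averaged 20488 ± 4638 at 100 d and 20961 ± 4176 at 80 d, and *ACTC1*, the actin of fetal and cardiac muscle, averaged 16370.4 ± 3099 at 100 d and 22195 ± 3617 at 80 d (± SD, n = 3 per stage). *TNNT2*, the cardiac troponin T that fetal muscle also makes, was lower in every fetus of 100 d. Its signals were 127, 151 and 156 at 100 d, against 322, 357 and 390.3 at 80 d. It did not pass (log2 difference -1.30 ± 0.74, adjusted p = 0.69). Signals within each of these stages lay close together, and the ± of the fit also draws on the scatter at later stages. Of 14 measured genes of calcium handling and excitation, 6 lay higher and 1 lower (median 0.38), and the 2 that passed at 0.05 were the pumps named above. *SLN*, the sarcolipin that restrains the calcium pump, had levels of 14413 ± 1981 at 100 d and 13010.2 ± 1581 at 80 d (± SD, n = 3 per stage), which overlapped, as did those of *ATP2A2*, the slow-fibre and cardiac pump, at 5223 ± 120.1 at 100 d and 5506 ± 370.4 at 80 d.

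The 8 probe sets that the platform annotation gives to *MYH1*, the heavy chain of adult fast IIX fibres, did not behave as 1 gene. In the list of the thick filament and myosin, which reads each gene from its brightest probe set, 15 genes were measured, 2 lay higher and 1 lower, the median was 0.12, and none passed at 0.05. Myosin heavy chain genes are close copies of each other, and a probe set of bovine sequence may read more than 1 of them. The sets are lettered A to H from the brightest to the dimmest at 100 d. Set C had signals of 3077, 4228 and 4116 at 100 d, against 114, 161 and 163 at 80 d, the largest difference of any probe set under an adjusted p of 0.01 other than *FBP2* (log2 difference 4.71 ± 0.23, adjusted p = 4.7e-07). Its call held in all 20 alternative settings. Set F gave 847, 1592 and 2400.3 at 100 d, against 85.1, 83.3 and 133 at 80 d (log2 difference 3.91 ± 0.34, adjusted p = 1.3e-04), and its near copy, set G, gave 834, 1707 and 2073 at 100 d, against 84.8, 115 and 158 at 80 d (log2 difference 3.64 ± 0.33, adjusted p = 1.5e-04). The other sets did not pass. Set B gave 9200, 10413 and 8316 at 100 d, against 3952, 3535 and 6516 at 80 d (log2 difference 1.04 ± 0.24, adjusted p = 0.11) and set D gave 1748, 4916 and 3989.8 at 100 d, against 416, 769 and 1564 at 80 d (log2 difference 2.03 ± 0.46, adjusted p = 0.11), both without overlap. The dimmest, set H, lay higher without overlap as well, and set E overlapped, with 1209.7, 3387 and 3357 at 100 d, against 1116, 2283 and 1935 at 80 d (log2 difference 0.49 ± 0.73, adjusted p = 0.93). Sets C, F and G went on to means of 15972, 14984 and 13620 at 120 d and 35235, 37947 and 34904 at 230 d. Sets B, D and H also stood higher at 230 d than at 100 d, at means of 33929, 15190 and 1145. The study describes *MYH1* as strongly up-regulated after birth.

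The brightest, set A, was 7459.6, 9564 and 13197 at 100 d, against 8865, 8967 and 9004 at 80 d, so the stages overlapped (log2 difference 0.13 ± 0.47, adjusted p = 0.98). It then dropped to a mean of 445 at 150 d and 14.2 at 230 d. Set E also dropped, to 37.0 at 230 d. A fall after birth was seen as well for *MYH3* and *MYH8*, the embryonic and neonatal chains. *MYH3* averaged 13782 ± 2882 at 100 d and 13547 ± 2835 at 80 d and *MYH8* 14387 ± 1448 at 100 d and 13164 ± 523 at 80 d (± SD, n = 3 per stage), each with overlapping stages, and at 230 d they averaged 108 and 132. *MYH7*, the slow chain, gave 11173, 6817 and 5234 at 100 d, against 5992, 5615 and 5978 at 80 d, with replicate 1 of 100 d well above the rest (log2 difference 0.33 ± 0.25, adjusted p = 0.79). The gene of the sets that rose is therefore uncertain, and what was measured is a signal that was higher in all 3 fetuses of 100 d while the embryonic, neonatal and slow chains overlapped between the stages.

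**Figure D3:**
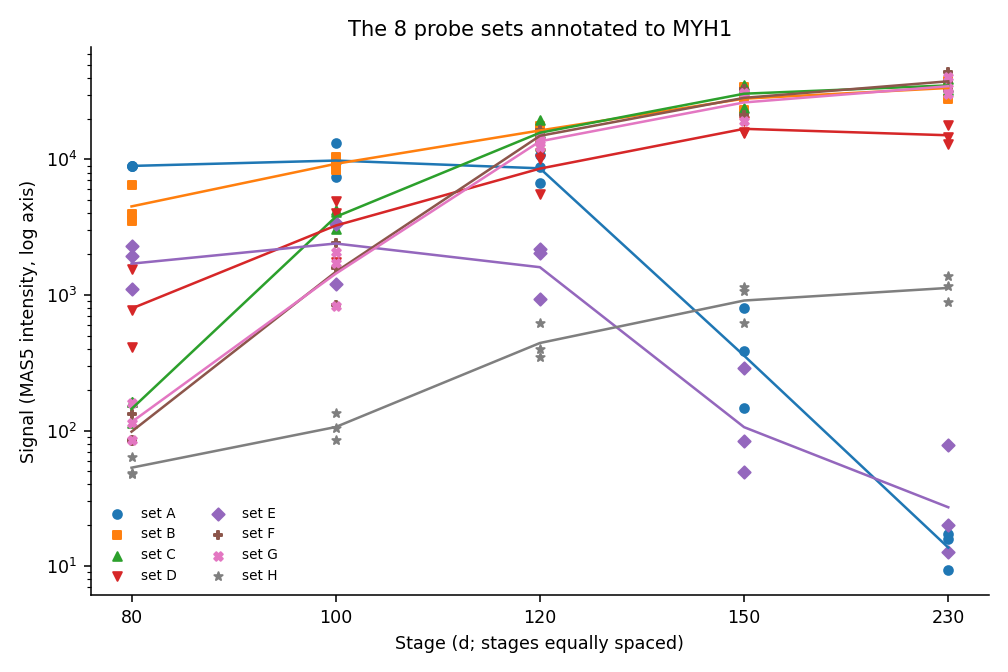
Signals of the 8 probe sets annotated to *MYH1* (log axis) at the 5 stages, with 1 point per array and lines through the geometric means. Between 80 d and 100 d sets C, F and G rise steeply, while set A has means of 10074 at 100 d and 8945 at 80 d and is down to 14.2 at 230 d.

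Genes of energy supply were divided by pathway. *GPT2*, the mitochondrial alanine aminotransferase, had signals of 645, 630.4 and 669 at 100 d, against 245, 185 and 302 at 80 d. The 3 fetuses of 100 d were nearly equal and all above the 80 d fetuses (log2 difference 1.44 ± 0.24, adjusted p = 0.021), and the call at 0.05 was lost with 5 of the 6 arrays left out in turn. Of the glycogen and glycolysis genes 35 of the 40 genes on the array were measured. Without overlap, 14 lay higher and 3 lower, the median difference was 0.28 (0.21 to 0.32 with 1 array left out), and only *FBP2* passed at 0.05. Their summed signal was 67884 to 71150 at 100 d and 47505 to 59808 at 80 d. Examples chosen after their values were seen were *ENO3*, the muscle enolase, at 8092, 8472 and 7533 at 100 d, against 4635, 3436 and 4301 at 80 d (log2 difference 0.97 ± 0.21, adjusted p = 0.08), and *PGAM2*, the muscle phosphoglycerate mutase, at 5352, 7124 and 6237 at 100 d, against 4075, 2547 and 3101 at 80 d (log2 difference 0.96 ± 0.24, adjusted p = 0.15). *SLC2A1*, the glucose transporter of many dividing and fetal cells, was instead lower, at 145, 178 and 174 at 100 d, against 249.7, 283 and 312 at 80 d (log2 difference -0.77 ± 0.50, adjusted p = 0.74). None of these 3 passed.

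The creatine system showed a contrast between its members. *GATM*, which makes the precursor of creatine, gave 357, 856 and 857 at 100 d, against 189.6, 241 and 145 at 80 d, with replicate 1 of 100 d lowest of its stage (log2 difference 1.77 ± 0.40, adjusted p = 0.11). *CKB*, the brain-type creatine kinase of immature muscle, gave 293, 254 and 203 at 100 d, against 673, 814 and 819 at 80 d, so every fetus of 100 d lay below every fetus of 80 d (log2 difference -1.63 ± 0.59, adjusted p = 0.4). *CKM*, the muscle-type kinase, was among the brightest genes of the muscle and gave 16659, 16649.8 and 14920.1 at 100 d, against 12557, 10879.5 and 12449.7 at 80 d (log2 difference 0.43 ± 0.20, adjusted p = 0.6). None of the 3 passed. Of the 10 creatine and adenine nucleotide genes measured, 5 lay higher and 1 lower, with a median of 0.33.

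Among the 33 measured genes of fatty acid use, 11 lay higher and 1 lower (median 0.26), none past 0.05. *PDK4*, which restrains pyruvate oxidation, gave 136, 134 and 98.6 at 100 d, against 39.6, 41.5 and 44.0 at 80 d (at least 2.43-fold, adjusted p = 0.18). As its 80 d signals were under 50, the fold was taken against 50 and is a lower bound. The filter kept *PDK4* through its 100 d arrays alone. Of 24 measured genes of the TCA cycle and pyruvate dehydrogenase, 3 lay higher and 1 lower (median 0.14), none past 0.05. For the respiratory chain, all 72 genes on the array were measured, 14 lay higher and 3 lower, and the median was 0.06, near that of all genes. The largest difference in that list was of *COX7A1*, the muscle and heart isoform of a cytochrome oxidase subunit, at 956, 1215 and 1262 at 100 d, against 554, 525 and 624 at 80 d (log2 difference 1.01 ± 0.20, adjusted p = 0.055). Of 16 transcription factors tied to fibre type and hormones, 7 lay higher and none lower, with a median of 0.22 and none past 0.05. *NR1D1*, a nuclear receptor of the clock, was 141, 131 and 137 at 100 d, against 28.5, 64.8 and 51.2 at 80 d, with the 80 d mean on the log scale under 50 (at least 2.72-fold, adjusted p = 0.069). *PDK4*, *COX7A1* and *NR1D1* were picked after their values were seen.

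Genes of the basement membrane and the vessel wall were also among those that rose. *COL15A1*, a collagen of the basement membrane zone of fibres and capillaries, had signals of 4653, 5342 and 5006 at 100 d, against 1901, 1675 and 1435 at 80 d. It was the brightest of the genes that passed at 0.01, its stages were far apart, and the difference was 1.59 ± 0.24, adjusted p = 0.009. A second probe set of *COL15A1* gave 3366, 3710.3 and 3381 at 100 d, against 1217, 1088 and 1114 at 80 d (log2 difference 1.61 ± 0.23, adjusted p = 0.0065). *PCOLCE2*, an enhancer of procollagen processing, gave 382, 552 and 429 at 100 d, against 148, 105 and 121 at 80 d (log2 difference 1.87 ± 0.25, adjusted p = 0.0058). *RASIP1*, which in mice is needed for vessels to open a lumen, gave 475, 414 and 404 at 100 d, against 122, 183 and 214 at 80 d (log2 difference 1.35 ± 0.20, adjusted p = 0.00971), with a second, dimmer probe set at 127 at 100 d and 75.4 at 80 d that did not pass. For all 3 genes the calls at 0.01 were lost with any 1 array left out, the highest adjusted p being 0.065 for *COL15A1*, 0.043 for *PCOLCE2* and 0.054 for *RASIP1*.

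Endothelial genes lay more often higher than lower. Of the endothelial list, 28 of the 34 genes on the array were measured, and 15 of these lay higher and none lower without overlap, against 10.6% and 11% of all genes. Only *RASIP1* passed at 0.05. The median difference was 0.50, and it ranged over 0.44 to 0.60 with 1 array left out. The summed signal was 18362 to 21301 at 100 d and 12795 to 13812 at 80 d, and 24875 to 25967 at 120 d. *PECAM1*, a junction protein of all endothelium, gave 3050.3, 3259 and 3435 at 100 d, against 2005, 1829 and 2117 at 80 d (log2 difference 0.71 ± 0.23, adjusted p = 0.31). *CAV1*, the coat protein of caveolae, gave 4676, 4767 and 5081 at 100 d, against 3191, 2949.9 and 3385 at 80 d (log2 difference 0.61 ± 0.22, adjusted p = 0.4). *VEGFA*, the growth factor that draws vessels and that muscle fibres also make, gave 1946, 3139.8 and 3006 at 100 d, against 1405, 1314 and 1281 at 80 d (log2 difference 0.99 ± 0.22, adjusted p = 0.1). *SOX18*, an endothelial transcription factor, was at 224, 211 and 214 at 100 d, against 67.8, 82.1 and 95.1 at 80 d (log2 difference 1.42 ± 0.35, adjusted p = 0.15). *PECAM1*, *CAV1*, *VEGFA* and *SOX18* did not pass and were picked after their values were seen.

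The genes of the vessel's muscle coat did not share this. Of 14 pericyte and smooth muscle genes measured, 3 lay higher and 2 lower, with a median of 0.01. *CNN1*, calponin of smooth muscle, had 177, 148 and 164 at 100 d, against 441, 369.9 and 551 at 80 d, and *ACTA2*, smooth muscle actin, which young myotubes also make, had 2829.6, 2021 and 1771 at 100 d, against 4704, 3892 and 4622 at 80 d. Both had every fetus of 100 d below every fetus of 80 d, at -1.46 ± 0.34, adjusted p = 0.11 for *CNN1* and -1.02 ± 0.20, adjusted p = 0.053 for *ACTA2*. *MYH11*, the smooth muscle myosin, lay the other way, at 333, 387 and 209 at 100 d, against 94.6, 181 and 149 at 80 d (log2 difference 1.13 ± 0.32, adjusted p = 0.23). None of the 3 passed.

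Connective tissue genes lay both higher and lower at 100 d without overlap, as did all genes (10.6% and 11%) and bright genes (11.4% and 16.7%). Of the 29 collagens and collagen-processing genes measured, 3 lay higher, 5 lower, and the median was -0.13 (0.05 with the hybridisation controls). The 2 that passed are *COL15A1* and *PCOLCE2*. Of 55 other matrix genes, 7 lay higher and 10 lower (median -0.03), with none past 0.05. *MGP*, matrix Gla protein, a restrainer of calcification, gave 1165, 1784 and 829 at 100 d, against 586, 323 and 409.5 at 80 d (log2 difference 1.49 ± 0.30, adjusted p = 0.059). *ADAM12*, a metalloprotease of fusing myoblasts and young mesenchyme, gave 278, 191 and 277 at 100 d, against 524, 619.5 and 929.6 at 80 d (log2 difference -1.45 ± 0.50, adjusted p = 0.37). Its stages did not overlap, and neither did those of *POSTN*, periostin, at 3909, 3001 and 2695 at 100 d, against 7064, 7951 and 8202 at 80 d (log2 difference -1.29 ± 0.64, adjusted p = 0.63), or *VCAN*, versican, at 1326, 1507 and 1959.9 at 100 d, against 2953, 3162 and 3063 at 80 d (log2 difference -0.96 ± 0.21, adjusted p = 0.09). The last pair were chosen after their values were seen, and none of the 4 passed.

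Genes of interferon response and antigen presentation lay more often higher than lower at 100 d, with the highest signals often in 1 fetus. *IFI27*, an interferon-induced gene, had signals of 451, 164 and 164 at 100 d, against 34.2, 20.5 and 7.2 at 80 d. Since the 80 d level was under 50, the rise is a lower bound (at least 4.60-fold, adjusted p = 0.025). The call at 0.05 was kept when replicate 1 of 80 d was left out but lost without any other array, at adjusted p-values up to 0.11. All its 80 d signals were under 50, so the filter kept *IFI27* through its 100 d arrays alone. Its separate stages follow from that. *IFI6*, of the same response, gave 2119, 433 and 864 at 100 d, against 298, 208 and 234 at 80 d, with replicate 1 of 100 d far above the other two, and did not pass (log2 difference 1.92 ± 0.49, adjusted p = 0.16). Without replicate 1 of 100 d its difference was 1.33. Of 43 of the 67 genes on the array in this list, 21 lay higher and 1 lower without overlap, and *IFI27* alone passed at 0.05. Genes kept through 100 d alone, such as *IFI27* and *MX1*, count among the 21 by construction. The count without them was not made. The median difference was 0.54, and 0.43 without replicate 1 of 100 d, when 23 lay higher and 1 lower. Replicate 1 of 100 d held the highest of the 6 signals for 24 of the 43 genes.

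The cells that such genes could come from gave mixed values. Of 15 measured T and B lymphocyte genes (21 others on the array were under the minimum signal), none lay higher and 1 lower, the median was 0.05, and the summed signal was 1351 to 1784 at 100 d and 1504 to 1785 at 80 d. Of 29 measured macrophage and other myeloid genes, 5 lay higher and 1 lower, with a median of 0.32 that was 0.08 without replicate 1 of 100 d. The part of these cells in the interferon result was not tested. Some dim members of the interferon list had separate stages, with 80 d levels under 50 that leave only a lower bound. *MX1*, an antiviral GTPase, was at 128, 99.0 and 109 at 100 d, against 40.9, 31.7 and 38.5 at 80 d (at least 2.23-fold, adjusted p = 0.08), and *PSMB9*, a subunit of the immunoproteasome, at 118, 108 and 115 at 100 d, against 29.5, 59.1 and 26.4 at 80 d (at least 2.28-fold, adjusted p = 0.059). Neither passed, and both were chosen after their values were seen. *MX1* was kept by the filter through its 100 d arrays alone, so its separate stages follow from that.

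Other genes that changed belong to no list. *PLCD1*, a phospholipase C that cleaves the membrane lipid PIP2, had signals of 1158, 986 and 1009.7 at 100 d, against 340.3, 218 and 257 at 80 d. The stages were far apart (log2 difference 1.97 ± 0.28, adjusted p = 0.0058), and at 150 d the mean was back to 238, after 1105 at 120 d. *PIGZ*, a mannosyltransferase of glycolipid anchors, gave 249, 364 and 374 at 100 d, against 97.3, 88.8 and 139.5 at 80 d (log2 difference 1.60 ± 0.24, adjusted p = 0.00971). *FRMD3*, a FERM domain protein, fell, with 248, 178 and 173 at 100 d, against 621, 806 and 628 at 80 d (log2 difference -1.79 ± 0.25, adjusted p = 0.0058). Their calls at 0.01 were lost with any 1 array left out, at adjusted p-values up to 0.04 for *PLCD1*, 0.074 for *PIGZ* and 0.047 for *FRMD3*. Bright genes that did not overlap but did not pass included *BHLHE40*, a repressor tied to the clock and to low oxygen, at 449, 728 and 404 at 100 d, against 229, 138 and 159 at 80 d (log2 difference 1.57 ± 0.32, adjusted p = 0.069). *RETREG1*, a receptor for autophagy of the endoplasmic reticulum, was at 861, 862 and 881 at 100 d, against 267, 410.3 and 334 at 80 d, nearly the same in all 3 fetuses of 100 d (log2 difference 1.39 ± 0.28, adjusted p = 0.069).

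For *ALS2CL*, a relative of the guanine nucleotide exchange factor alsin, the probe sets disagreed. The dimmest at 80 d of its 3 sets gave 151, 159.7 and 177 at 100 d, against 23.2, 30.8 and 48.2 at 80 d, a rise given as a lower bound since the 80 d level was under 50 (at least 3.25-fold, adjusted p = 0.005, and at most 0.035 with 1 array left out). The filter kept this set through its 100 d arrays alone, so its separate stages follow from that. The brightest set had 174, 134 and 151 at 100 d, against 140, 112 and 104 at 80 d, which overlapped, and did not pass (log2 difference 0.37 ± 0.19, adjusted p = 0.65).

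Genes of proliferation lay more often lower than higher at 100 d. *RANBP1*, which binds the Ran GTPase in nuclear transport and the mitotic spindle, had signals of 522, 815 and 489.7 at 100 d, against 1791, 1885 and 2041 at 80 d. Every fetus of 100 d lay far below every fetus of 80 d, and the difference was -1.68 ± 0.24, adjusted p = 0.0058. Its adjusted p was over 0.01 with 5 of the 6 arrays left out in turn, and 0.04 at most. The call at 0.01 was also lost with the hybridisation controls, with no filter and with the replicate block. It was lost as well with the 6 arrays alone and the 9 fetal arrays alone, the highest adjusted p of any setting being 0.047. A dimmer probe set of *RANBP1* did not follow it, with means of 143 at 100 d and 141 at 80 d (log2 difference -0.04 ± 0.69, adjusted p = 0.99). The identity of the transcript that fell is therefore uncertain. Of the cell cycle and DNA replication genes, 66 of the 73 genes on the array were measured, and 23 lay lower and 1 higher without overlap. Only *RANBP1* passed at 0.05. The median difference was -0.31 (-0.32 to -0.26 with 1 array left out), and the summed signal was 40883 to 43769 at 100 d and 51180 to 57429 at 80 d. With the hybridisation controls the median was -0.13, against 0.19 for all probe sets, with 12 lower and 5 higher, and the summed signals overlapped.

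Among the brighter members of that list were *CDKN1C*, an inhibitor of cyclin-dependent kinases, at 9761, 8014 and 6575 at 100 d, against 10804, 8915 and 8802 at 80 d (log2 difference -0.24 ± 0.22, adjusted p = 0.86), *STMN1*, a microtubule regulator of dividing cells and neurons, at 5492, 5603 and 4923 at 100 d, against 8131, 6833 and 7347 at 80 d (log2 difference -0.48 ± 0.34, adjusted p = 0.78), and *H2AZ1*, a histone variant, at 4579.8, 4259.8 and 4393 at 100 d, against 5432, 4957 and 4769.5 at 80 d (log2 difference -0.19 ± 0.14, adjusted p = 0.78). Among those with larger differences, *CCND2*, a cyclin that opens the cell cycle, was 1413, 992 and 1317 at 100 d, against 2471, 2622 and 2465 at 80 d (log2 difference -1.04 ± 0.31, adjusted p = 0.28), and *CDK1*, the kinase of mitosis, was 90.1, 123 and 177 at 100 d, against 285, 307 and 223 at 80 d (log2 difference -1.11 ± 0.40, adjusted p = 0.41). None of these 5 passed, and they were chosen after their values were seen. *NCL*, nucleolin of the nucleolus, was uneven, at 1232, 442 and 1298 at 100 d, against 2669, 2919.8 and 1681 at 80 d, with replicate 2 of 100 d lowest (log2 difference -1.40 ± 0.50, adjusted p = 0.4).

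Chaperones lay more often lower than higher too, but not under every scaling. *HSP90AA1*, the inducible cytosolic HSP90, gave 1487, 1049 and 1834 at 100 d, against 3033, 3697 and 2654 at 80 d (log2 difference -1.13 ± 0.25, adjusted p = 0.09), while its second probe set averaged 513 at 100 d and 594 at 80 d with overlapping stages. Of 39 heat shock and endoplasmic reticulum chaperone genes, 11 lay lower and 3 higher, none passed at 0.05, and the median was -0.17, but 0.01 with the hybridisation controls, when 6 lay higher and 5 lower. *HSPB8*, a small heat shock protein of muscle, lay the other way, at 3849.5, 3548 and 4164 at 100 d, against 2230.2, 2082 and 1706 at 80 d (log2 difference 0.95 ± 0.21, adjusted p = 0.085), and was picked after its values were seen.

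Genes best known from neurons were among the bright genes with lower signals at 100 d, and none of them passed. *TAGLN3*, a neuron-enriched relative of transgelin, gave 719, 325 and 446 at 100 d, against 1073, 825 and 1050.4 at 80 d (log2 difference -1.05 ± 0.27, adjusted p = 0.17). *DBN1*, drebrin, an actin binder of growing neurites, gave 167, 256 and 271 at 100 d, against 412, 627 and 563 at 80 d (log2 difference -1.22 ± 0.40, adjusted p = 0.33). *PTN*, pleiotrophin, a heparin-binding growth factor for axons, gave 1035, 1325 and 1198 at 100 d, against 1566, 3371 and 2734 at 80 d (log2 difference -1.05 ± 0.45, adjusted p = 0.53). *MLLT11* followed the same order, at 214, 145 and 219 at 100 d, against 695, 604 and 528 at 80 d (log2 difference -1.68 ± 0.52, adjusted p = 0.29). All 4 were named by a rule that required separate stages, and of them only *PTN* is in the neural list. Replicate 1 of 80 d was the lowest of its stage for *PTN* and *DBN1*. Of the 29 measured neural, axon and Schwann cell genes, 9 lay lower and 5 higher, against 11% and 10.6% of all genes. The 5 higher genes are not described here. The median was -0.35 (-0.44 to -0.31 with 1 array left out). The counts were 6 and 6 with the hybridisation controls, with a median of -0.17 against 0.19 for all probe sets.

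The myogenic, imprinted and lipid synthesis lists also had lower members. Of 24 measured myogenic regulators and fusion genes, 7 lay lower and 5 higher (median -0.15, and 0.04 with the hybridisation controls). *CDH2*, the N-cadherin of fusing myoblasts, was 109.9, 54.5 and 68.0 at 100 d, against 209.7, 201 and 207 at 80 d (log2 difference -1.47 ± 0.32, adjusted p = 0.083), and *MYF6*, a regulator of late differentiation, was 1618, 1673 and 1968 at 100 d, against 1579, 1507 and 1479 at 80 d (log2 difference 0.20 ± 0.24, adjusted p = 0.9). Of 18 imprinted genes, 6 lay lower and none higher (median -0.18, and 0.00 with the hybridisation controls), *NNAT* being the only one past 0.05. *MEST*, an imprinted gene of growing mesoderm, was 5969, 5765 and 5103 at 100 d, against 9379, 7276 and 7458 at 80 d (log2 difference -0.51 ± 0.19, adjusted p = 0.43). Of 24 measured genes of adipocytes and lipid synthesis, 6 lay lower and 2 higher, with a median of -0.06 and none past 0.05. Of these, *TM7SF2*, a sterol reductase of cholesterol synthesis, was 246, 219 and 158 at 100 d, against 429, 467 and 479 at 80 d (log2 difference -1.16 ± 0.34, adjusted p = 0.25). *CDH2*, *MYF6* and *MEST* were chosen after their values were seen, and none of the 4 passed.

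The gene lists are set side by side in the plot of non-overlapping shares, and the summed signals of 6 of them in the plot by array. The summed signals of the fibre lists, not drawn, overlapped between the stages. They were 117586 to 156610 at 100 d and 112024 to 141962 at 80 d for the thin filament, 94887 to 114226 at 100 d and 91146 to 111399 at 80 d for the thick filament, and 50031 to 64689 at 100 d and 49638 to 53730 at 80 d for the Z-disc. No set test was made, so nothing here says that a list stands apart from other genes.

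**Figure D4:**
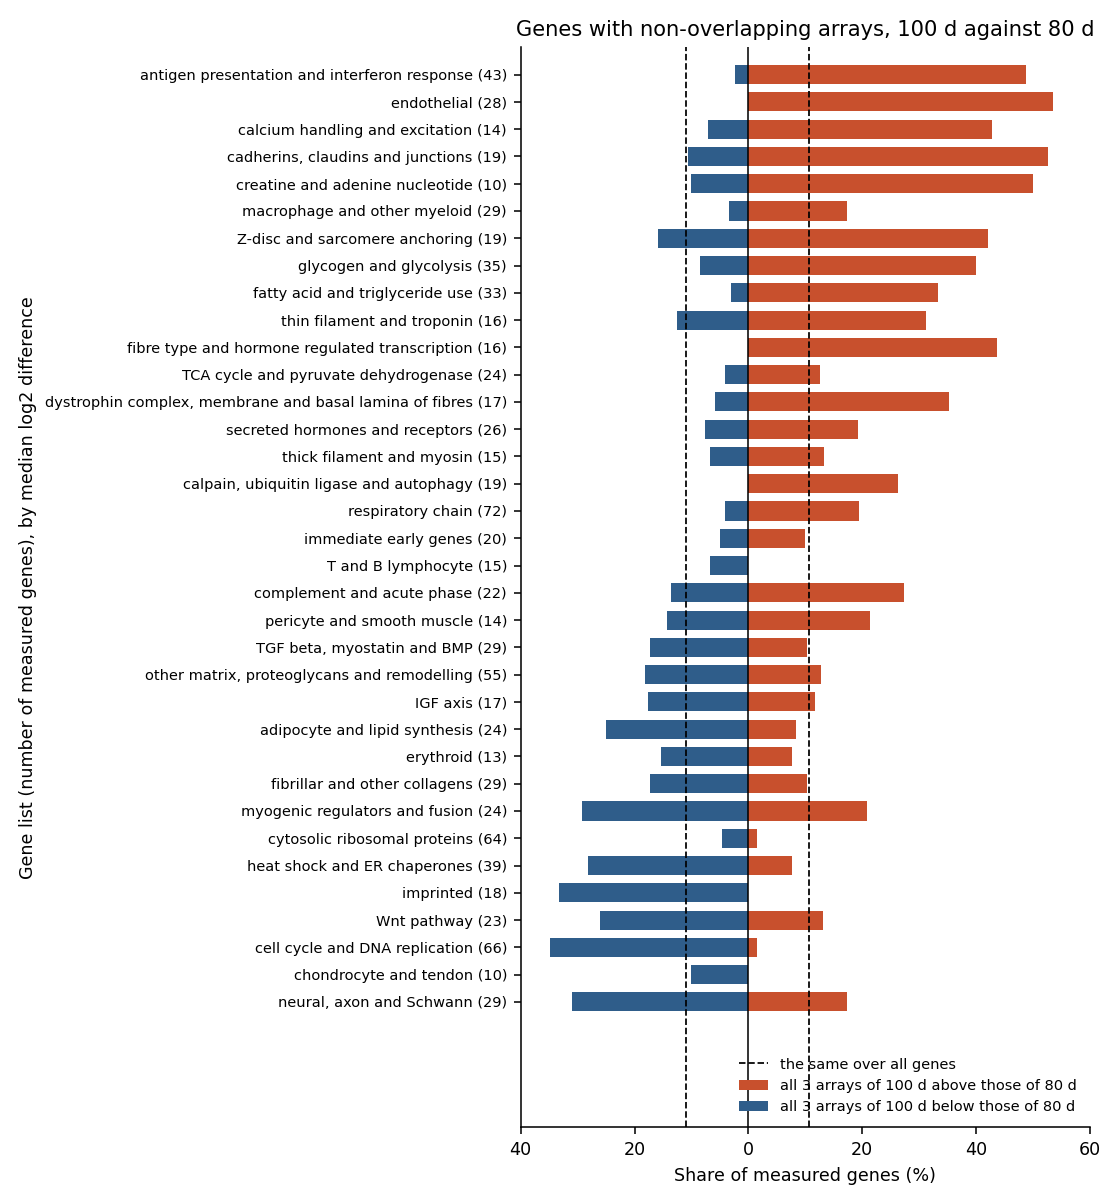
Share of the measured genes of each list (bars, %) whose 3 arrays at 100 d all lay above (right) or all below (left) those at 80 d, for lists with at least 10 measured genes, ordered by median log2 difference. The dashed lines are the shares over all genes, 10.6% higher and 11% lower, which many lists exceed. Among them are the endothelial (15 of 28), junction (10 of 19) and interferon (21 of 43) lists to the right. To the left are the cell cycle (23 of 66), imprinted (6 of 18) and neural (9 of 29) lists, among others. Genes that the filter kept through 1 stage alone are included.

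**Figure D5:**
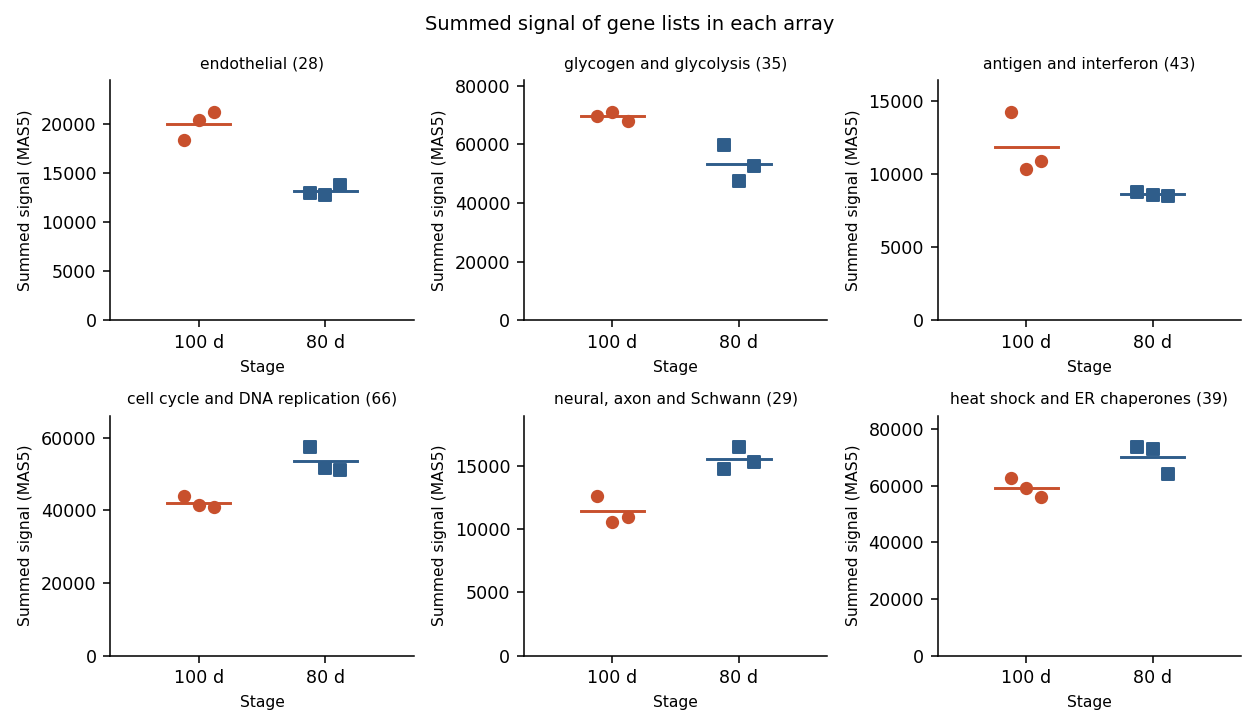
Summed signal of the measured genes of 6 lists in each array, with 100 d (circles) left of 80 d (squares), 3 fetuses per stage and a bar at the mean. None of the 6 lists overlaps between the stages as deposited, with endothelial sums of 18362 to 21301 at 100 d and 12795 to 13812 at 80 d, and interferon sums highest in 1 fetus of 100 d. Scaled to the hybridisation controls, the cell cycle, neural and chaperone sums overlap. The chaperone sums also overlap with quantile normalization.

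The levels reached at 100 d had different courses afterwards, given here as values since the comparison with 120 d shares the 100 d arrays. *ATP2A1* averaged 8878 at 120 d and 24483 at 230 d, *ACTN3* 3845 and 9364, and *RPL3L* 748 and 2213. *COL15A1* instead held at 5249 at 120 d and was 1767 at 150 d, near its 80 d mean of 1670.2. *RASIP1* stayed at 417 at 120 d and 381 at 230 d. *IFI6* was down to 315 at 120 d. Of the genes lower at 100 d, *FRMD3* averaged 120.1 at 120 d but 420.3 at 230 d, *CKB* 121 and 90.5, and *HSP90AA1* 1638 and 2822.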

How the data were processed

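Intensities deposited by the authors were used as they stood: MAS5 signals on a linear scale, background corrected, summarised by a Tukey biweight and scaled to a mean of 200 on each array, per the study's methods. The sources used here do not name the MAS5 version. Control probe sets (112) were removed, signals under 0.1 (2 values) were set to 0.1, and log2 was taken. Samples were grouped by the stage in their labels. Each of the 5 stages was given its own mean in limma 3.58.1 (R 4.3.3), on all 15 arrays, with lmFit and eBayes without trend, and Benjamini-Hochberg adjustment over the 13724 kept probe sets. Names came from probe sets with 1 gene symbol in the platform annotation (13292, with 86 having several and 10638 none). Where a stage's geometric mean was under 50, a fold was taken against 50 and is a lower bound. A probe set under 50 on every array of 1 stage was kept through the other stage alone. Its non-overlap therefore follows from the filter. Named genes were those past 0.01, the 12 bright, non-overlapping genes with the largest difference in each direction at an unadjusted p under 0.05, and, for each of 37 lists, members past 0.05. Other genes given with values were chosen after their values were seen. The genes, lists and rules were chosen with earlier results of these data known. Lists are described by counts and medians, with no set test. In simulated data with 3 arrays per stage the fit recovered 8% of changes of 2-fold and 68% of changes of 4-fold at 0.01, and 22% and 80% at 0.05. It was a single run of 50 changed probe sets per fold with independent noise, without deviations shared across an array. These shares may therefore differ from those in the real arrays. The number of arrays limits the precision, and the smallest two-sided exact permutation p for 3 against 3 is 0.1. Alternatives covered scaling, floor, filter, arrays fitted, variance model, block and each array left out.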

Additional observations from a re-analysis of the deposited data

How the results depend on the processing

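The count of probe sets under an adjusted p of 0.01 (25) moved by over 1.5 times in these settings. It was 9 with no filter on low signals, 2 with the 6 arrays alone, 39 with limma's trend and robust options, 118 with array weights, 12 with the replicate block, and 4260 with the moderated F-statistic, which tests all 4 intervals at once. The count under 0.05 (47) was 30, 87, 470 and 6454 with no filter, trend and robust options, array weights and the F-statistic, 72 with the 9 fetal arrays alone, and 45 with both the replicate block and the 6 arrays alone. With 1 array left out in turn, the counts were 8 to 13 at 0.01 and 19 to 47 at 0.05. Non-overlapping probe sets (2798) were then 3764 to 4847 and bright genes (692) 849 to 1137, since 2 arrays against 3 overlap less by construction. The replicate numbers do not pair animals, which differed between stages. Deviations of arrays with the same number correlated at 0.27, 0.09 and 0.04, and replicate 1 alone correlated best with its own number, so the paired analysis with the replicate block is no more than a check. The hybridisation controls gave 23 probe sets at 0.01, all of them higher at 100 d, and 63 higher and 5 lower at 0.05. Apart from these causes by construction, the cause was not tested. Of 91 probe sets given with values, 7 changed direction under an alternative, all with overlapping stages and none past 0.05. With array medians set equal *MYH3* differed by -0.0017 (100 d minus 80 d, log2). With quantile normalization *ACTA1*, *ATP2A2* and *TNNC2* differed by 0.0060, 0.0032 and 0.068. With the hybridisation controls these 3 differed by 0.073, 0.11 and 0.14, and the dimmer sets of *DUSP12* and *RANBP1* by 0.058 and 0.14. With 1 array left out the differences ranged over -0.14 to 0.19 for *MYH3*, -0.28 to 0.032 for *ACTA1*, -0.21 to 0.10 for *TNNC2*, -0.29 to 0.14 and -0.34 to 0.23 for the dimmer sets of *DUSP12* and *RANBP1*, and -0.083 to 0.33 for set A of *MYH1*. Lists with 1 array left out were added after seeing the data. Depth is unknown for arrays, and signals near 50 are little above background, so small differences of dim genes were not detectable.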

Other observations

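Several dimmer or less known genes also passed an adjusted p of 0.05 and were outside the rule for naming genes, so they are given here as chosen after their values were seen. *ASL*, argininosuccinate lyase of the urea cycle and of arginine supply, had signals of 394, 391 and 537 at 100 d, against 159, 203 and 185 at 80 d (log2 difference 1.27 ± 0.21, adjusted p = 0.016). *SCIN*, a gelsolin-like actin severing protein, gave 440.4, 419.9 and 274 at 100 d, against 107, 155 and 99.3 at 80 d (log2 difference 1.65 ± 0.29, adjusted p = 0.026). *CYSTM1*, a small membrane protein, gave 383, 374 and 391 at 100 d, against 222, 147 and 184 at 80 d (log2 difference 1.07 ± 0.17, adjusted p = 0.013). In all 3 the fetuses of the 2 stages did not overlap. Genes of very low signal passed as well, such as *PDYN*, the precursor of dynorphin, at 6.2, 2.2 and 8.8 at 100 d, against 54.0, 89.2 and 109 at 80 d (a fall of at least 1.61-fold, adjusted p = 0.015), which sits near the minimum signal of 50 at 80 d and below it at 100 d. The filter kept *PDYN* through its 80 d arrays alone, so its separate stages follow from that.

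The red cell genes gave shares near those of all genes. *HBB*, beta globin, had signals of 10767, 11523 and 13699 at 100 d, against 23753, 14317 and 18385 at 80 d (log2 difference -0.63 ± 0.48, adjusted p = 0.8), and its stages did not overlap, while *GYPC*, a membrane glycoprotein of red cells that other cells also make, was 2906, 3199 and 3022 at 100 d, against 1990, 1498 and 1637 at 80 d (log2 difference 0.84 ± 0.19, adjusted p = 0.1). Neither passed. Of the 13 measured erythroid genes, 1 lay higher and 2 lower, with a median of -0.09 and a summed signal of 16252 to 20112 at 100 d and 18578 to 30018 at 80 d. Of the 10 measured cartilage and tendon genes, 1 lay lower and none higher, but their summed signal was 4218 to 10635 at 100 d and 8484 to 10519 at 80 d and their median moved over -0.68 to 0.07 with 1 array left out.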
